A study of Mus musculus with 6 samples.

Results

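The peroxisome genes described here are the transcript clusters whose 1 platform symbol starts with Pex and a digit, or is one of a fixed set of peroxisomal enzymes and transporters. The rule found 33 genes, 14 Pex genes and 19 enzymes and transporters, among 22086 genes tested. All 33 passed the filter on low values, each had 1 cluster, and none had values identical to those of another gene. Pex5l, a paralog of the import receptor Pex5, was taken in by its symbol alone, and other members of the Pex family were not analysed here.

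Peroxisomes are small organelles that shorten very long, branched and dicarboxylic fatty acids by beta-oxidation and that oxidise D-amino acids, hydroxy acids and sarcosine. Their oxidases make hydrogen peroxide, which catalase breaks down. The Pex proteins, or peroxins, insert the membrane proteins, import the folded enzymes from the cytosol, recycle the import receptors and help the organelle divide. In the kidney, peroxisomes are most plentiful in the proximal tubule.

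The samples were whole kidneys of female Pkd1 miR transgenic mice, a line made as a model of polycystic kidney disease. Injections into the peritoneum ran from postnatal day 35 to day 63, with saline in 3 mice and with metformin at 150 mg/kg per day in the other 3. Metformin is a biguanide diabetes drug that inhibits mitochondrial complex I. Kidneys were taken at the end of treatment, and 1 array was run per mouse. The sources used here do not give the promoter of the transgene. Both groups carried the transgene, so the comparison holds nothing about the transgene itself, and mice without it were not analysed here. Array medians ran from 4.67 to 4.86 log2 units. Correlations between arrays across clusters ran from 0.993 to 0.996 within groups and from 0.984 to 0.993 between them. The kidney markers Umod of the thick limb, Slc34a1 of the proximal tubule and Aqp2 of the collecting duct had saline means of 18.98 ± 0.11, 18.64 ± 0.05 and 15.15 ± 0.72 log2 units (SD, n = 3).

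The comparison of metformin with saline asks which kidney transcripts differ after treatment. With metformin 13 of the 19 peroxisomal enzymes and transporters fell, 6 did not pass the test and 0 rose. Of the 14 Pex genes 5 fell, 9 did not pass and 0 rose. Over all genes tested 9.08% were called lower and 6.71% higher (limma, Benjamini-Hochberg adjusted p under 0.05). The median difference was -0.60 log2 units over the enzymes and transporters, -0.17 over the Pex genes and 0.02 over all genes tested. Of the 18 genes that fell, 13 fell by at least 1.5-fold and 3 by at least 2-fold. In whole kidney, fewer cells of a type and less RNA per cell cannot be told apart.

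**Figure D1:**
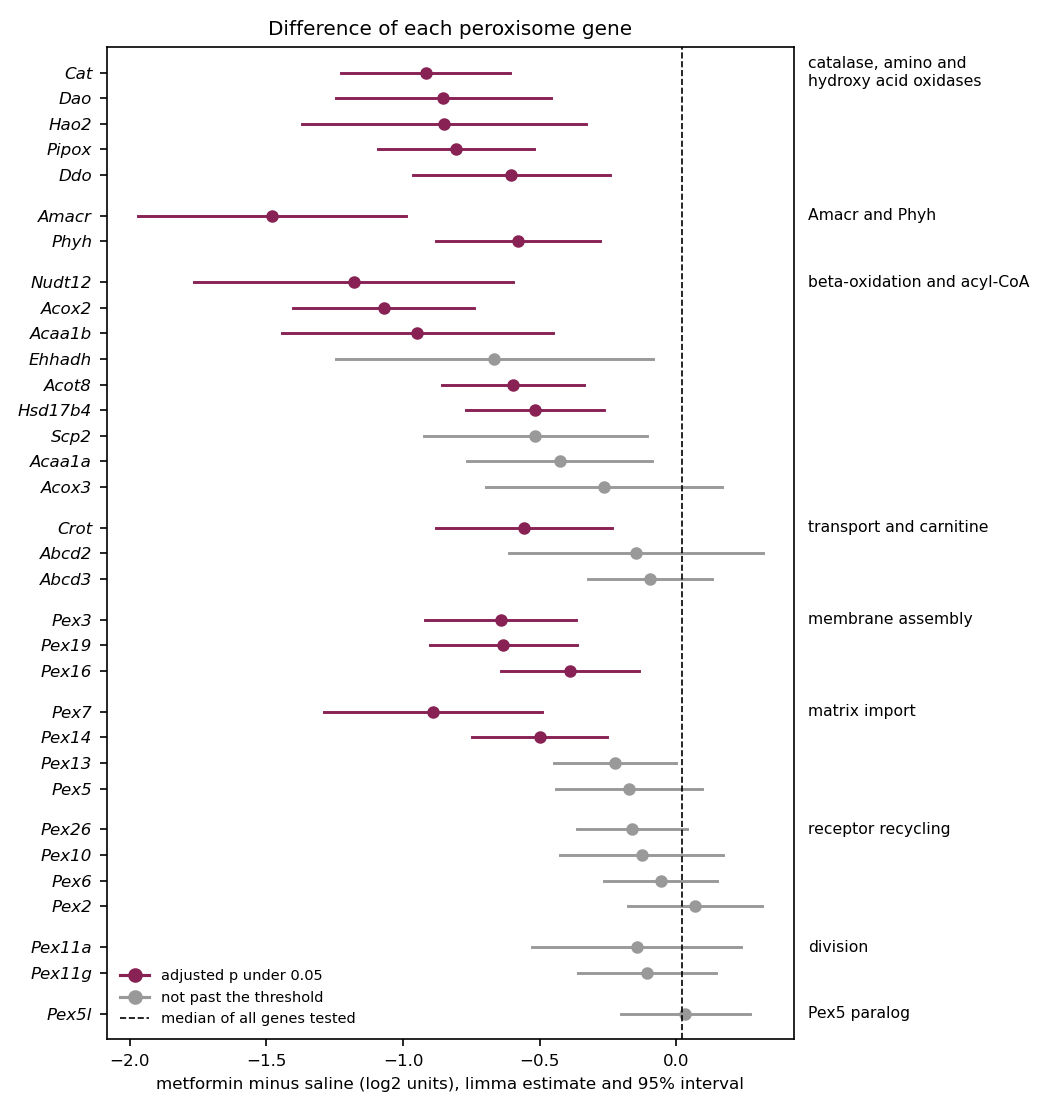
The difference between metformin and saline for each of the 33 peroxisome genes, as the limma estimate in log2 units (x axis) with its 95% interval, grouped by role; the dashed line is the median of all genes tested, 0.02. Catalase with the 4 oxidases of amino and hydroxy acids, Amacr and Phyh, and the 3 membrane assembly Pex genes are past the threshold, while the receptor recycling and division Pex genes are not.

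Catalase and the 4 oxidases of amino and hydroxy acids fell: 5 of 5 passed the test, and on each the 3 metformin arrays lay below the 3 saline arrays. Groups that did not overlap, with metformin lower, were seen in 19.4% of all genes tested. Values below are log2 expression, given in the order of the replicate numbers. Catalase, Cat, read 17.66, 17.66 and 17.70 on the saline arrays and 16.52, 16.73 and 17.01 on the metformin arrays. It fell by 0.92 ± 0.13 (SE), or 1.89-fold (adjusted p = 0.00898). The saline arrays spanned 0.05 log2 units, and metformin array 1 was the lowest. Dao, the D-amino acid oxidase, read 12.57, 12.24 and 12.47 on the saline arrays and 11.23, 11.68 and 11.81 on the metformin arrays. It fell by 0.85 ± 0.17 (SE), or 1.81-fold (adjusted p = 0.0197). Ddo, which oxidises D-aspartate, read 9.06, 9.24 and 9.65 on the saline arrays and 8.61, 8.76 and 8.77 on the metformin arrays. It fell by 0.60 ± 0.15 (SE), or 1.52-fold (adjusted p = 0.0402). The lowest saline array of Ddo, array 1, lay 0.29 log2 units above its highest metformin array. Hao2, a hydroxy acid oxidase of the kidney, read 16.52, 15.84 and 16.41 on the saline arrays and 15.07, 15.44 and 15.72 on the metformin arrays. It fell by 0.85 ± 0.22 (SE), or 1.8-fold (adjusted p = 0.0426). The gap between its groups was 0.12 log2 units, the narrowest of these 5 genes. Pipox, which oxidises pipecolic acid and sarcosine, read 14.27, 14.02 and 14.20 on the saline arrays and 13.15, 13.46 and 13.45 on the metformin arrays. It fell by 0.81 ± 0.12 (SE), or 1.75-fold (adjusted p = 0.01). Some values, Cat among them, lie above what a 16-bit scanner can record, so folds hold on the deposited scale.

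Upstream sequences of 4 members, from RefSeq (build GRCm38.p6, 5′ to 3′, the 250 bases before the annotated start), show how unlike their promoters are, with CG dinucleotides in capitals. Hao2 and Pipox are oxidases that fell, Pex3 is a Pex gene that fell, and Abcd3 is a transporter that did not pass the test.
Hao2, chr3:98893231-98893480, minus strand: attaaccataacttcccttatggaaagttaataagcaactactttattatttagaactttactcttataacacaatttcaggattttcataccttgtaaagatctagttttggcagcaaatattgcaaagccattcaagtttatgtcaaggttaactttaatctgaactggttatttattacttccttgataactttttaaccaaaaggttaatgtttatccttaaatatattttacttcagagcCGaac
Pipox, chr11:77893873-77894122, minus strand: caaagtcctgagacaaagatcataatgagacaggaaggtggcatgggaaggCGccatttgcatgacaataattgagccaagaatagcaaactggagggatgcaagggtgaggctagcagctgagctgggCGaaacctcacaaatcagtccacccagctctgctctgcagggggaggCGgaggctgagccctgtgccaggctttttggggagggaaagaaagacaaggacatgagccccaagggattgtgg
Pex3, chr10:13553143-13553392, minus strand: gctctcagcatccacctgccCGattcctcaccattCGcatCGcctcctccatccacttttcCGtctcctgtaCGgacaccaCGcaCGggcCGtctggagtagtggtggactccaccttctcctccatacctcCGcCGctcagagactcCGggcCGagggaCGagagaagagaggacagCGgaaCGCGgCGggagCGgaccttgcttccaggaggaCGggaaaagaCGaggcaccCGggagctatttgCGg
Abcd3, chr3:121815303-121815552, minus strand: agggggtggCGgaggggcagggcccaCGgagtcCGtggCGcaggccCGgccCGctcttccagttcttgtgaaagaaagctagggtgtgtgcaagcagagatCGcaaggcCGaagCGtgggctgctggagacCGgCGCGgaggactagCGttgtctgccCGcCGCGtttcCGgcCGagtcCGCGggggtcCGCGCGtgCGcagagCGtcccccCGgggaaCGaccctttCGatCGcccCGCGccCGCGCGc
These stretches hold 1 CG dinucleotide for Hao2, 3 for Pipox, 22 for Pex3 and 34 for Abcd3. RefSeq windows of 300 bases (250 before to 50 after the start) were held for 26 of the 33 members. Per window the median number of CG dinucleotides was 14 over 11 Pex genes, 11 over 15 enzymes and transporters and 7 over all 32851 windows of the table. It was 10.5 over the 14 members that fell and had a window, and 18 over the 12 that did not pass. Members with many and with few CG dinucleotides both fell, as Pex3 (28 per window) and Hao2 (2 per window) show.

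Nuclear receptors of the PPAR family bind direct repeats of AGGTCA with 1 base between the copies, and many peroxisomal genes are textbook PPARA targets in rodents. With up to 2 mismatches among the 12 letters compared, on either strand, such a repeat was in 2 of 33 windows of members (some have several starts) and in 3.86% of all windows. With only the first window of each member it was in 1 of 26 windows (3.85%). The 2 matches, in windows of Cat and Acox2, are both shown, with the repeat in capitals.
Cat, chr2:103485337-103485365, minus strand: actctcagAGGTCAGAGAACAccagcagg
Acox2, chr14:8258810-8258838, minus strand: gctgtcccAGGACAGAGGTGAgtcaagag
The Cat match starts at base -204 relative to the annotated start and the Acox2 match at base 10 after it. Matching letters are only a description of the sequence, and no binding was measured.

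Amacr and Phyh, which prepare branched-chain fatty acids for beta-oxidation, both fell. Amacr, the racemase that turns branched acyl-CoAs into the form beta-oxidation accepts, had the greatest fall of the 33 genes. It read 11.09, 10.47 and 11.02 on the saline arrays and 9.03, 9.55 and 9.55 on the metformin arrays. It fell by 1.48 ± 0.21 (SE), or 2.79-fold (adjusted p = 0.00864). The highest metformin array lay 0.91 log2 units below the lowest saline array. Phyh, the hydroxylase that starts alpha-oxidation of phytanic acid, read 15.03, 14.62 and 14.76 on the saline arrays and 14.09, 14.28 and 14.31 on the metformin arrays. It fell by 0.58 ± 0.13 (SE), just under 1.5-fold (adjusted p = 0.0271).

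Along beta-oxidation the acyl-CoA genes did not all pass. Acox2, the oxidase for branched acyl-CoAs and bile acid intermediates, read 11.21, 10.73 and 11.07 on the saline arrays and 9.82, 9.89 and 10.08 on the metformin arrays. It fell by 1.07 ± 0.14 (SE), or 2.1-fold (adjusted p = 0.00747). The other branched-chain oxidase of the set, Acox3, had overlapping groups and a difference of -0.27 (95% interval -0.70 to 0.17, adjusted p = 0.372). The middle steps are carried out by the bifunctional enzymes Ehhadh and Hsd17b4. Hsd17b4 read 13.95, 13.84 and 13.86 on the saline arrays and 13.18, 13.46 and 13.45 on the metformin arrays. It fell by 0.52 ± 0.11 (SE), or 1.43-fold (adjusted p = 0.0226). Ehhadh read 15.22, 15.23 and 15.98 on the saline arrays and 14.42, 14.93 and 15.09 on the metformin arrays. Its groups did not overlap, but its saline arrays spanned 0.76 log2 units, with array 3 the highest, and the difference was -0.67 (95% interval -1.25 to -0.08, adjusted p = 0.113).

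The last step belongs to the thiolases Acaa1a and Acaa1b and to Scp2, the sterol carrier that holds a further thiolase. Acaa1b read 11.66, 11.50 and 11.16 on the saline arrays and 10.05, 10.75 and 10.69 on the metformin arrays. It fell by 0.95 ± 0.21 (SE), or 1.93-fold (adjusted p = 0.0274). Acaa1a read 9.47, 9.42 and 9.36 on the saline arrays and 8.67, 9.20 and 9.10 on the metformin arrays. Its groups did not overlap, and its difference was -0.43 (95% interval -0.77 to -0.09, adjusted p = 0.0876). The thiolase genes are close paralogs whose probes may share signal, so their separate values are uncertain. Scp2 read 14.21, 13.94 and 14.53 on the saline arrays and 13.48, 13.76 and 13.90 on the metformin arrays. Its metformin arrays lay below its saline arrays, and the difference was -0.52 (95% interval -0.93 to -0.11, adjusted p = 0.087). Blocking on replicate number, Ehhadh and Scp2 passed (adjusted p = 0.0315 and 0.0495), which made the enzyme count 15. The labels state no pairing of the replicate numbers, so the block rests on a pairing read from the same data.

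Of the genes that release and clear the products, Acot8, a thioesterase that cleaves acyl-CoAs, read 7.59, 7.49 and 7.53 on the saline arrays and 6.76, 7.10 and 6.96 on the metformin arrays. It fell by 0.60 ± 0.11 (SE), or 1.51-fold (adjusted p = 0.0166). Nudt12, a hydrolase of NADH and of NAD caps on RNA, read 9.92, 10.61 and 10.79 on the saline arrays and 8.89, 9.47 and 9.42 on the metformin arrays. It fell by 1.18 ± 0.25 (SE), or 2.27-fold (adjusted p = 0.0238). Its saline array 1 was the lowest of that group but stayed above every metformin array. Crot, which hands shortened acyl chains to carnitine for transfer to mitochondria, read 13.66, 13.38 and 13.86 on the saline arrays and 12.97, 13.11 and 13.15 on the metformin arrays. It fell by 0.56 ± 0.14 (SE), or 1.47-fold (adjusted p = 0.036). The membrane transporters of acyl-CoAs did not pass. Abcd3, the abundant half-transporter of the membrane, had overlapping groups and a difference of -0.10 (95% interval -0.32 to 0.13, adjusted p = 0.546). That interval leaves out a fall of 1.5-fold, which is 0.58 on the log2 scale. Abcd2, a paralog, averaged 4.87 ± 0.40 with saline and 4.72 ± 0.15 with metformin (SD, n = 3 per group), not far above the filter at 4.03. Its difference was -0.15 (95% interval -0.61 to 0.32, adjusted p = 0.661).

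**Figure D2:**
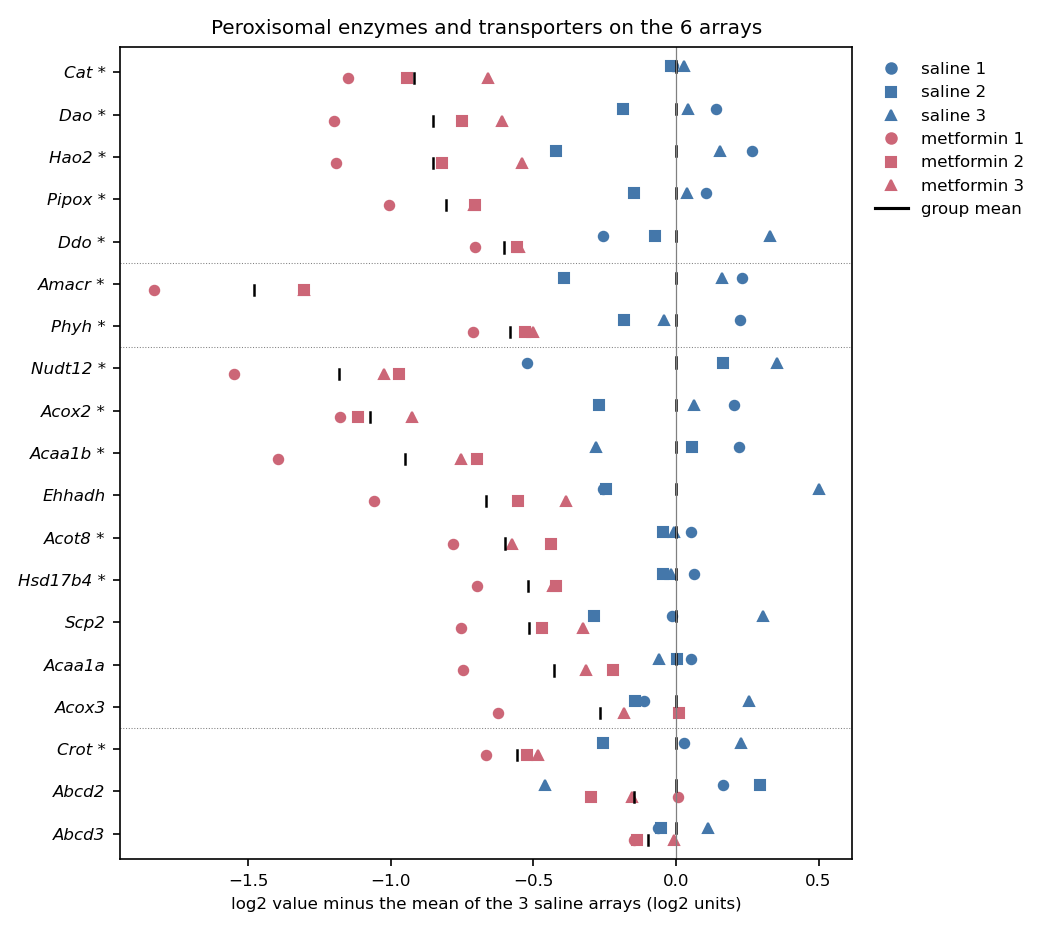
Each of the 19 enzymes and transporters on each array, as the log2 value minus the mean of the 3 saline arrays (x axis); blue symbols are saline, red are metformin, the shape is the replicate number, black ticks are group means and a star marks adjusted p under 0.05. The groups do not overlap in 16 of the 19 genes, with metformin lower, against 19.4% of all genes tested. Metformin array 1 is often the leftmost point. It was the lowest array for 18.6% of all genes tested and 64.4% of the genes called lower.

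The Pex genes are given by their step in building the organelle. The 3 genes for inserting membrane proteins all fell. Pex19, the chaperone that carries new membrane proteins, read 9.64, 9.72 and 9.86 on the saline arrays and 8.94, 9.26 and 9.12 on the metformin arrays. It fell by 0.63 ± 0.12 (SE), or 1.55-fold (adjusted p = 0.0156). Pex3, the membrane anchor on which Pex19 docks, read 11.08, 10.96 and 11.20 on the saline arrays and 10.31, 10.38 and 10.62 on the metformin arrays. It fell by 0.64 ± 0.12 (SE), or 1.56-fold (adjusted p = 0.016). Pex16, which recruits Pex3, read 7.36, 7.42 and 7.43 on the saline arrays and 6.83, 7.13 and 7.08 on the metformin arrays. It fell by 0.39 ± 0.11 (SE), or 1.31-fold (adjusted p = 0.0489). The Pex16 call was the nearest to the threshold and was lost with no filter on low values (adjusted p = 0.0550), with a variance trend (0.0519), with trend and robust options (0.0517) and with array weights (0.0513).

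Of the import genes 2 of 4 fell. Pex7, the receptor for enzymes with an N-terminal targeting signal such as Phyh and the thiolases, had the greatest fall among the Pex genes. It read 10.62, 10.17 and 10.51 on the saline arrays and 9.28, 9.81 and 9.53 on the metformin arrays. It fell by 0.89 ± 0.17 (SE), or 1.85-fold (adjusted p = 0.0181). Pex14, the docking protein at the import pore, read 8.15, 8.05 and 7.95 on the saline arrays and 7.43, 7.68 and 7.54 on the metformin arrays. It fell by 0.50 ± 0.11 (SE), or 1.41-fold (adjusted p = 0.0239). Its docking partner Pex13 read 9.20, 8.99 and 9.07 on the saline arrays and 8.91, 8.89 and 8.80 on the metformin arrays. The groups of Pex13 did not overlap, by 0.09 log2 units, and the difference was -0.22 (95% interval -0.45 to 0.00, adjusted p = 0.156). Pex5, the receptor for the C-terminal targeting signal that most matrix enzymes carry, read 7.57, 7.88 and 7.84 on the saline arrays and 7.48, 7.66 and 7.63 on the metformin arrays. Its groups overlapped, and the difference was -0.17 (95% interval -0.44 to 0.10, adjusted p = 0.35).

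The genes that recycle the import receptor had 0 of 4 called in the limma fit. At an unadjusted p under 0.05 that fit had 0 of these 4, and 7077 of all 22086 genes tested. Pex2 and Pex10 are subunits of the ubiquitin ligase that marks the receptor, and Pex6 is a subunit of the ATPase that pulls it out, held at the membrane by Pex26. Pex26 read 6.47, 6.54 and 6.55 on the saline arrays and 6.31, 6.42 and 6.36 on the metformin arrays. The difference was -0.16 (95% interval -0.36 to 0.04, adjusted p = 0.247), with groups that did not overlap, and the plain test per gene gave Pex26 an unadjusted p of 0.0154 (equal-variance test, adjusted p = 0.116). It was -0.13 (95% interval -0.42 to 0.17, adjusted p = 0.544) for Pex10. It was -0.06 (95% interval -0.26 to 0.15, adjusted p = 0.711) for Pex6. It was 0.07 (95% interval -0.18 to 0.31, adjusted p = 0.7) for Pex2, which turned to -0.02 with median-centred arrays and -0.13 with quantile normalization. With quantile normalization Pex13 and Pex26 passed (adjusted p = 0.0412 and 0.0281).

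The division genes Pex11a and Pex11g had overlapping groups. The Pex11a difference was -0.14 (95% interval -0.53 to 0.24, adjusted p = 0.594). That of Pex11g was -0.11 (95% interval -0.36 to 0.14, adjusted p = 0.544). Pex5l, expressed mainly in brain, lay near the filter at 4.35 ± 0.07 on the saline and 4.38 ± 0.12 on the metformin arrays (SD, n = 3 per group), and its difference was 0.03 (95% interval -0.20 to 0.27, adjusted p = 0.862), which scaling also turned below 0 (-0.06 and -0.04). The 95% intervals of all 9 Pex genes that did not pass leave out a fall of 1.5-fold, and all include smaller falls. Whether the Pex genes and the enzymes differ in their response was not tested.

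**Figure D3:**
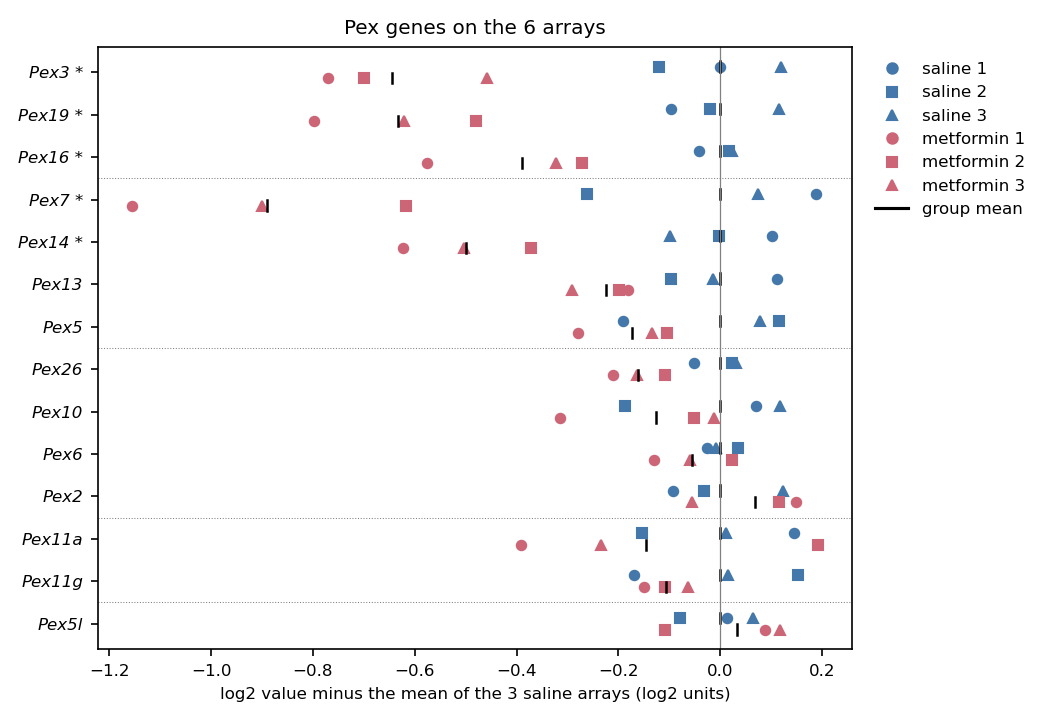
Each of the 14 Pex genes on each array, as the log2 value minus the mean of the 3 saline arrays (x axis), with symbols as for the enzymes: blue saline, red metformin, shape by replicate number, black ticks for group means and a star for adjusted p under 0.05. The 5 starred genes have a gap between the groups, and the axis is narrower than that of the enzymes, since the differences run from -0.89 to 0.07.

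The calls rest on 3 arrays a group. Of the 18 calls 5 held in each of the 6 fits that left out 1 array: Acox2, Amacr, Cat, Pipox and Pex19. Ddo and Pex16 held in 0 of them. Without saline replicate 1 the test called 5 enzymes and 1 Pex gene, beside 2.22% of all genes called lower in that fit. Leaving out saline replicate 2 gave 13 and 4 (9.67%), and leaving out saline replicate 3 gave 7 and 4 (5.37%). The fit that dropped metformin replicate 1 called 6 enzymes and 1 Pex gene (3.21%), that dropping metformin replicate 2 called 5 and 3 (3.54%), and that dropping metformin replicate 3 called 10 and 3 (4.86%). A test per gene without shrinkage of the variance called 0 enzymes, 0 Pex genes and 44 genes in the whole table after adjustment. At an unadjusted p under 0.05, that test had 13 enzymes and 7 Pex genes. The share of all genes at that unadjusted threshold was not counted for that test. In the limma fit 7077 of the 22086 genes tested had an unadjusted p under 0.05, with 16 enzymes and transporters and 5 Pex genes. The direction of all 18 calls was the same in every fit run. The groups of these genes did not overlap, so leaving out 1 array could not have turned the direction. The fits that change only the variance keep the same difference.

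**Figure D4:**
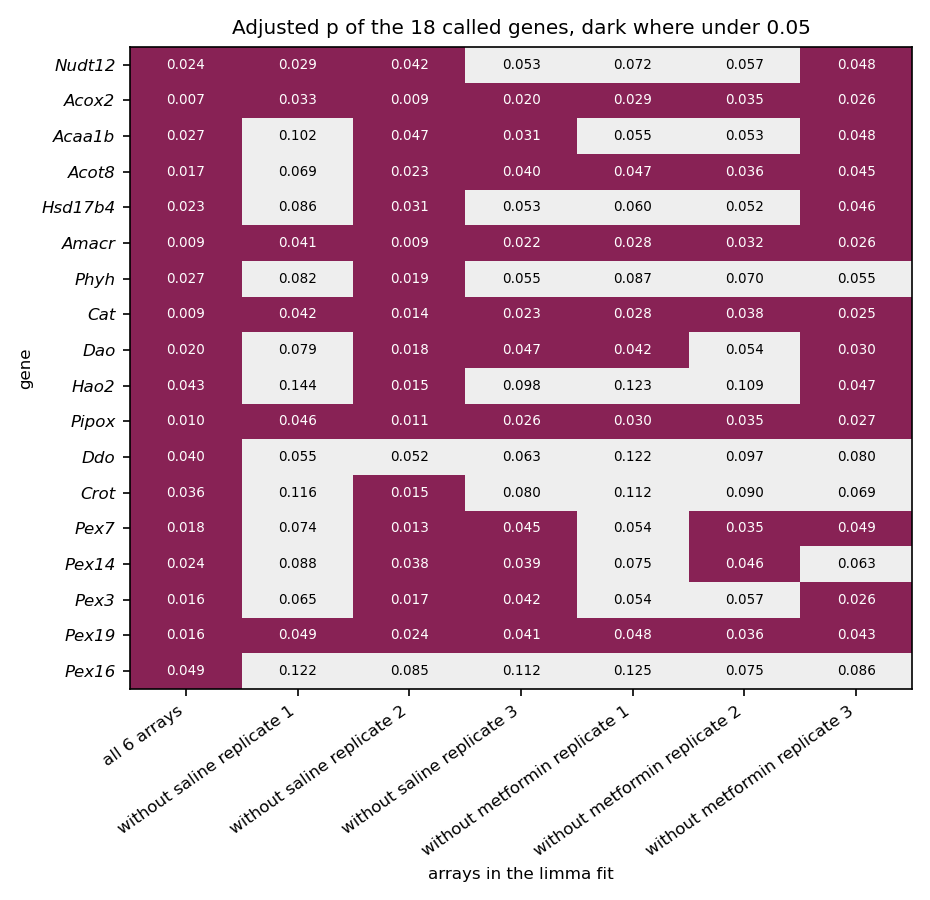
Adjusted p of the 18 genes that fell (rows) in the limma fit of all 6 arrays and in the 6 fits without 1 array (columns), dark where under 0.05. Acox2, Amacr, Cat, Pipox and Pex19 are dark across, while Ddo and Pex16 are dark in the first column only.

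Other peroxisomal genes outside the rule were taken from lists of the pathway. Of 28 further enzymes and transporters 14 fell and 0 rose, with a median of -0.66. They include Gstk1, a glutathione transferase of peroxisomes and mitochondria (-1.60), Decr2, which prepares unsaturated fatty acids (-1.40), the dehydrogenase Acad11 (-1.21), the epoxide hydrolase Ephx2 (-0.96), Hacl1, which follows Phyh in alpha-oxidation (-0.93), and cytosolic and peroxisomal Idh1 (-0.76). Slc27a2, the very long chain acyl-CoA synthetase, had a difference of -0.14 (adjusted p = 0.381). Of 5 genes of ether lipid synthesis, which begins in peroxisomes, Gnpat (-0.53, adjusted p = 0.0106) and Dhrs7b (-0.90, adjusted p = 0.00735) fell. Agps and Far1 had differences of -0.08 and -0.14 (adjusted p = 0.683 and 0.550).

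Of 19 genes of the membrane, fission and turnover 8 fell and 0 rose, with a median of -0.28. They include the membrane ATPase Atad1 (-1.06), the cofactor carrier Slc25a17 (-0.91), the channel protein Pxmp2 (-0.80) and the tether to the endoplasmic reticulum Acbd5 (-0.62). The fission genes Fis1, Mff and Dnm1l had differences of -0.06, -0.08 and -0.06 (adjusted p = 0.608 to 0.765). Of 27 PPAR regulators and other targets 10 fell and 0 rose, with a median of -0.45. Ppara itself fell by 1.05 (adjusted p = 0.0312), the mitochondrial thiolase subunit Hadhb by 1.11 and the omega-hydroxylase Cyp4a14 by 0.74. The greatest falls of that list were those of Acot2 (-1.62), Slc25a20 (-1.31), Cd36 (-1.29) and Vnn1 (-1.25). Pdk4, Angptl4 and Plin2, also targets, did not pass, with differences of -0.07, -0.02 and -0.07 (adjusted p = 0.711 to 0.968). The coactivator Ppargc1a had a difference of 0.11 (adjusted p = 0.584). Acot, Cyp4a and similar families hold close paralogs whose probes can share signal.

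Markers of several cell types moved with the groups. Of 27 measured proximal tubule markers 10 fell and 0 rose, with a median of -0.78. Slc27a2 is also on the list of further peroxisomal genes. Averaged over the markers, the deviation from the gene's own 6-array mean was 0.36, 0.19 and 0.58 for saline, by replicate number, then -0.74, -0.30 and -0.09 for metformin. The same measure for the 19 peroxisomal enzymes and transporters was 0.37, 0.23 and 0.43, then -0.57, -0.26 and -0.20. For the 14 Pex genes it was 0.14, 0.10 and 0.19, then -0.24, -0.06 and -0.12. In all 3 lists saline array 3 was the highest and metformin array 1 the lowest. Of 9 loop and distal tubule markers 2 fell and 0 rose, with a median of -0.54 and 1 difference above 0. Of 9 collecting duct markers 4 fell and 0 rose, with a median of -0.57 and 3 differences above 0. Of 12 adipocyte markers 2 fell and 0 rose, with a median of -1.37. The 2 were Car3 (38.6-fold, adjusted p = 0.0174) and Adipoq (2.5-fold, adjusted p = 0.0472). In 9 of the 12 the groups did not overlap, with metformin lower, against 19.4% of all genes tested. In the limma fit 11 of the 12 had an unadjusted p under 0.05, against 7077 of all 22086 genes tested. The adipocyte deviations ran from -0.19 to 1.68 on saline and from -0.96 to -0.72 on metformin arrays. Of 10 macrophage markers only Lyz2 passed, and it rose. All 10 differences were above 0, with a median of 0.62. The macrophage deviations ran from -1.02 to 0.36 on saline and from 0.07 to 0.64 on metformin arrays. Of 6 fibroblast markers Col1a1 rose by 1.65 (adjusted p = 0.0404) and 0 fell, with deviations from -0.95 to 0.41 on saline and from 0.04 to 0.41 on metformin arrays. The differences were above 0 for 4 of the 6 and below 0 for 2. Among the latter was Dcn, the fibroblast marker of highest mean (-0.58, adjusted p = 0.277). Alas2, the 1 erythroid marker measured, fell by 0.53 (adjusted p = 0.0309). The adipocyte deviations were 1.0, 1.68 and -0.19 on saline arrays 1, 2 and 3. Without saline array 1 the test called 5 enzymes and 1 Pex gene, beside 2.22% of all genes called lower. Without saline array 2 it called 13 and 4 (9.67%), and without saline array 3 it called 7 and 4 (5.37%). The part of these cell types in the falls was not tested.

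**Figure D5:**
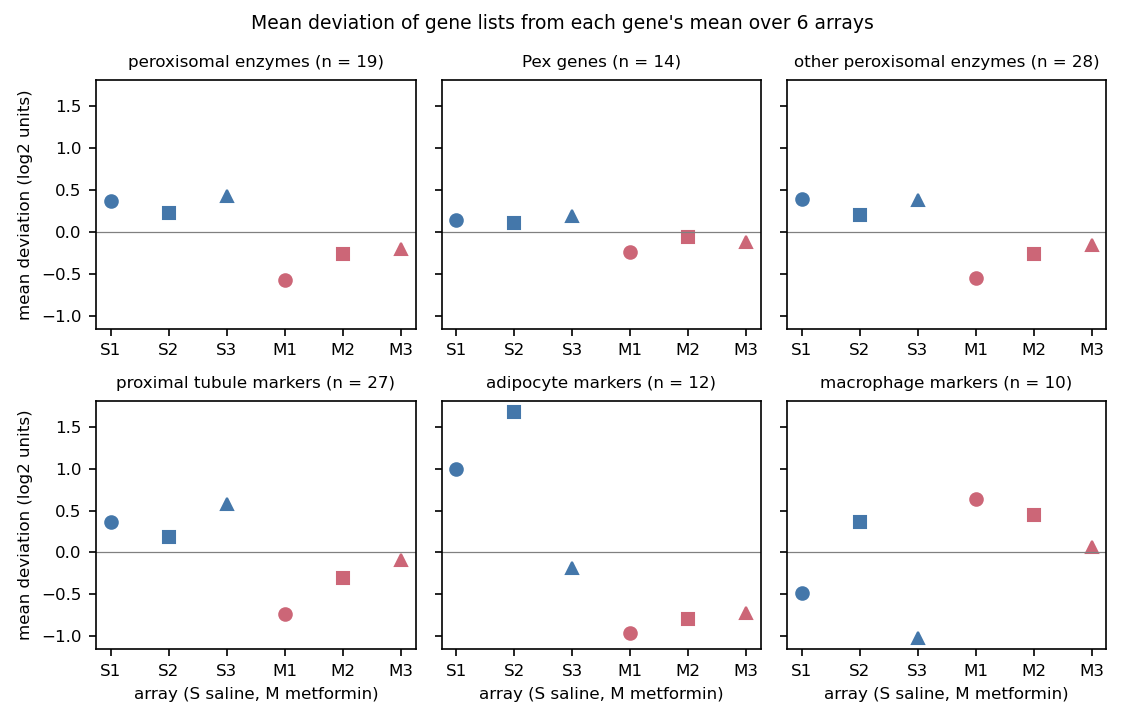
Mean deviation in log2 units (y axis) of 6 gene lists from each gene's own average, for saline (S, blue) and metformin (M, red) arrays 1 to 3. Peroxisomal enzymes, Pex genes, other peroxisomal enzymes and proximal tubule markers are above 0 on all saline and below 0 on all metformin arrays, adipocyte markers peak on saline array 2 at 1.68, and macrophage markers overlap between the groups.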

How the data were processed

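Total RNA of 6 mouse kidneys was labelled with biotin by a GeneChip WT PLUS kit, as the labels' protocols say. The authors deposited log2 expression for each transcript cluster. The submitters' processing notes name RMA and Transcriptome Analysis Console 4.0. The sources used here do not give the RMA variant or its settings. Clusters were named from the platform annotation, 30604 of 65956 with 1 symbol, and updated through the Entrez number (827 changed). The lowest 33.3% of clusters by mean (at or under 4.03) were left out, and the cluster with the highest mean was kept per gene. The 22086 genes were fitted with limma 3.58.1 in R 4.3.3 (lmFit, eBayes), metformin minus saline, two-sided, with Benjamini-Hochberg adjustment over all genes and a threshold of 0.05. The script was tested on simulated data. With 3 against 3 an exact permutation test cannot go below 0.1, and the number of arrays limits the precision.

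The labels call the arrays biological replicates. Deviations from group means correlated at 0.118, 0.145 and 0.541 for the replicate numbers 1, 2 and 3, all over 0.1. On that ground the numbers were treated as pairs in an alternative fit. Saline 2 with metformin 1 reached 0.299 and the labels state no pairing, so these correlations do not settle which arrays belong together. The fit with the block was an alternative, besides leaving out each array, other scalings and filters, the mean over clusters, trend, robust and array weight options and a plain test per gene. Members and lists were chosen with earlier results of these data known. Genes shown by array are those past the threshold and the 3 largest differences among the rest of each class. From the other peroxisomal and PPAR lists, genes past the threshold, else of smallest p, were to be named. From the marker lists it was to be genes of highest mean, a rule that Adipoq and Apoa2 do not meet. Slc27a2, Agps, Far1, Fis1, Mff, Dnm1l, Pdk4, Angptl4, Plin2 and Ppargc1a were chosen after their values were seen. So were Adipoq, Apoa2, Fga and Fgb among the markers, and the count of CG dinucleotides. Protein sequences were not used here. Sequences come from RefSeq, GRCm38.p6, by symbol, with the first window listed per gene for the medians. The sources used here name no build for the array values, so no gene coordinates are set beside them.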

Additional observations from a re-analysis of the deposited data

How the results depend on the processing

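Without 1 array the count of genes called in the whole table ran from 842 to 3965 (3489 with all arrays), that of enzymes and transporters from 5 to 13 (13) and that of Pex genes from 1 to 4 (5). The equal-variance test per gene gave 44, 0 and 0. Blocking on replicate number gave counts of 4373, 15 and 5, with Ehhadh and Scp2 gained, and no other member's call changed. The other 8 alternatives gave 13 to 15 enzymes and 4 to 7 Pex genes. Median-centring and quantile normalization moved the median of all genes tested from 0.02 to -0.07 and -0.10, that of the enzymes from -0.60 to -0.69 and -0.81 and that of the Pex genes from -0.17 to -0.26 and -0.36. The share of called genes that were higher went from 42.5% to 25.2% and 20.7%, and the share of all genes called lower from 9.08% to 12.3% and 17.2%. Quantile normalization added Scp2, Acaa1a, Pex13 and Pex26 to the calls (adjusted p = 0.0359, 0.0472, 0.0412 and 0.0281). Scp2 also passed without saline replicate 2 (0.0376). Only Pex2 (-0.02 centred, -0.13 quantile) and Pex5l (-0.06 and -0.04, and from -0.01, without saline replicate 2 or metformin replicate 3, to 0.10 when 1 array was left out) changed direction. Signal over background per probe is not in the values used here.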

Other observations

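Metformin array 1 was the lowest of the 6 arrays for 28 of the 33 peroxisome genes and for 18 of the 18 that fell. Over the whole table it was the lowest for 64.4% of the genes called lower and for 18.6% of all genes tested. Without it 7 of the 18 calls held, and the median difference was -0.51 for the enzymes and transporters and -0.13 for the Pex genes. On the saline side, arrays 1 and 3 were the highest for 13 genes each and array 2 for 4. The cause was not tested.

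Endothelial Ehd3 and hepatocyte-type transcripts were measured as markers of other cells. Ehd3, of glomerular endothelium, fell by 1.66 (adjusted p = 0.00676), and 2 of 7 endothelial markers fell in all. Of 6 hepatocyte-type transcripts 2 fell and 0 rose. Albumin, Alb, fell by 1.51 (adjusted p = 0.0119), and Apoa2 by 0.67 (adjusted p = 0.0127). The differences of Fgb and Fga were above 0, at 1.26 and 0.55 (adjusted p = 0.228 and 0.578). In all, 0 of 4 podocyte and 0 of 7 lymphocyte markers passed in the limma fit. At an unadjusted p under 0.05 that fit had 0 of each, and 7077 of all 22086 genes tested. The relation of these markers of other cells to the peroxisome genes was not tested.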
